A study of Mus musculus with 9 samples.

Results

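The genes described here encode the subunits of oxidative phosphorylation, the chain of protein complexes in the inner mitochondrial membrane that turns the oxidation of nutrients into ATP. They were chosen by symbol alone, as every gene whose name starts with Nduf, Uqcr, Atp5 or Cox4 to Cox8, together with Sdha, Sdhb, Sdhc and Sdhd. The rule found 92 of the 24411 genes counted. Of these, 36 belong to complex I, 7 help to assemble complex I, 4 form complex II, 8 complex III, 20 complex IV and 15 complex V, and the remaining 2 are Atp5s and Atp5sl. Subunits encoded in the mitochondrial genome are not analysed here.

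Complex I (NADH dehydrogenase) and complex II (succinate dehydrogenase) feed electrons to coenzyme Q, complex III passes them to cytochrome c, and complex IV (cytochrome c oxidase) hands them to oxygen. The protons pumped on the way drive complex V, the ATP synthase. Macrophages activated through Toll-like receptors are known to rely more on glycolysis and to use the chain differently, with succinate and complex II at the centre of much of that work.

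RNA was sequenced from cultures labelled as primary microglia, the resident macrophages of the brain, shaken off mixed glia that had been grown from whole brains of ICR mouse pups 3 days old. After 24 h of plating, cells received 1 µM R848 (resiquimod, an agonist of TLR7 in the mouse), 100 U/ml IFN-α (a type I interferon) or both agents, for 4 h. Each group had 3 libraries, all from the same strain under the same culture protocol. Untreated cells, which the design names, are not analysed here, so every difference below is between treatments. The labels do not say whether libraries came from separate litters or cultures, so p-values describe the spread among libraries alone, and that spread may be technical.

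Gene counts per library ran from 2505941 to 6005578, and the members held 10479 to 22907 of them. All 13 microglial markers were detected, but so were all 10 astrocyte markers, whose summed level was 1451 to 1708 CPM (counts scaled to library size) with R848, 1158 to 1463 with IFN-α and 2383 to 3426 with both. The microglial sum was 3297 to 3869 CPM, 5106 to 5378 CPM and 3743 to 4199 CPM in the same order. Single markers did not all follow these sums. For R848 against IFN-α, 7 of 10 astrocyte markers had a log2 fold change below 0, although their sum was higher. For both agents against IFN-α, 4 of 10 were below 0. Of 13 microglial markers, 10 were below 0 for R848 against IFN-α. No marker of astrocytes, oligodendrocytes, neurons, fibroblasts or endothelial cells was at 0 in all libraries. These are bulk cultures, in which fewer cells of a type and less RNA per cell cannot be told apart. The first R848 library stood apart. Its deviations from the group mean rose with the GC content of the transcript, with r = 0.492 across 10971 genes (genes are not independent replicates), against -0.284 and -0.312 in the other R848 libraries and between -0.0601 and 0.0866 in the remaining ones. Across the 81 tested members alone, r was 0.548, -0.357 and -0.451 in the R848 libraries and 0.377, -0.256 and -0.1855 in the IFN-α libraries. In the combined libraries it was 0.0948, 0.0608 and -0.159. Calls are therefore also given without the first R848 library, and without other single libraries, where they change.

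The members were well expressed, and the complexes stood at different levels. Per kilobase of transcript, and averaged over 9 libraries, the median level of tested members was 37.8 CPM per kb in complex I, 43.3 in complex II, 91.4 in complex III, 121.5 in complex IV and 93.7 in complex V. The assembly factors of complex I, which act on the enzyme without staying in it, had a median of 6.11 CPM per kb. The highest members were Atp5b, the catalytic β subunit of the ATP synthase, at 226.9 CPM per kb, Cox8a of complex IV at 223.6 and Uqcrq of complex III at 205.5. The lowest tested subunit of complex I was Ndufs4, which lies in the arm that takes electrons from NADH, at 6.06 CPM per kb. Within complex V the range ran from 21.2 CPM per kb for Atp5e, the ε subunit, up to Atp5b. These levels have limits. Of the 92 members, 28 share stretches of at least 100 bases at 95% identity or more with other genes. Reads that map to several places are not counted, so the levels of those members could be too low. Lengths are those of a single transcript per gene, and the annotation used for the counts is not known.

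**Figure D1:**
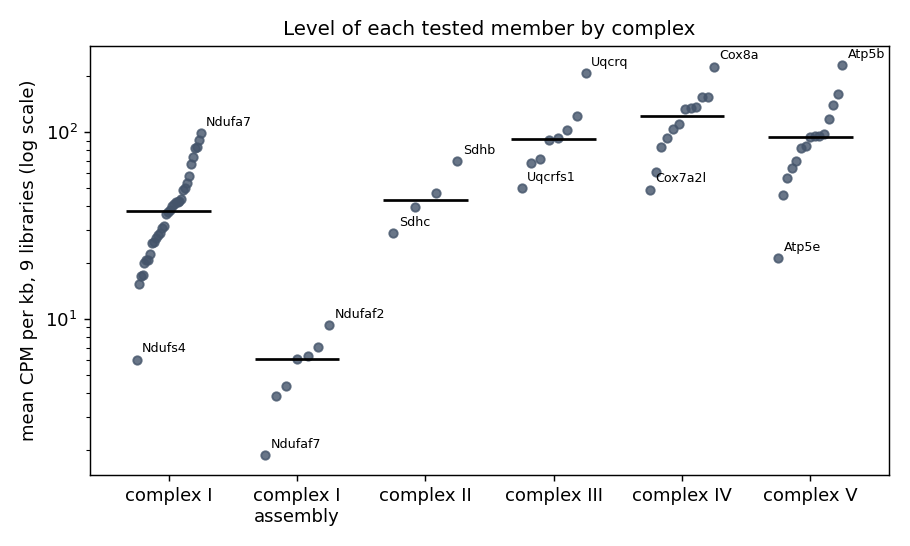
Level of the 80 tested members that belong to a complex or its assembly, as mean CPM per kb over 9 libraries on a log axis. Each point is a gene, the bar is the median of the complex, and the highest and lowest members are named; complex I assembly factors have the lowest median (6.11) and complex IV the highest (121.5).

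The summed level of all 92 members was 4501, 4730 and 4569 CPM in the R848 libraries, 4793, 4810 and 5074 CPM with IFN-α and 4557, 4504 and 4584 CPM with both agents. Every IFN-α library was thus above every other library on this scale. The means were 4600 ± 117.3, 4893 ± 157.4 and 4549 ± 41.1 CPM (SD, n = 3 each). The IFN-α mean was also the highest for complex I, with 1190 ± 41.8, 1338 ± 32.9 and 1154 ± 38.1 CPM in that order of groups, for complex II, with 321.4 ± 7.55, 378.0 ± 5.30 and 331.4 ± 9.13 CPM, and for complex III, with 577.6 ± 31.5, 633.6 ± 18.6 and 590.2 ± 15.4 CPM. Complex IV and complex V stood at 966.1 ± 29.7, 963.0 ± 68.0 and 930.9 ± 7.84 CPM and at 1476 ± 18.9, 1510 ± 42.8 and 1485 ± 34.8 CPM. These sums use totals scaled by TMM, which sets the typical gene equal between libraries. As a plain share of gene counts other than the ribosomal transcript Rn45s, the members held 0.625 ± 0.0171% with R848, 0.642 ± 0.0251% with IFN-α and 0.473 ± 0.00350% with both. The typical gene was lower in the combined group on such a scale too: with unscaled library totals the median log2 fold change of all 11002 tested genes was -0.42 against R848 and -0.32 against IFN-α. Fold changes below are on the TMM scale, and the members' medians are given beside those of all genes.

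Of the 92 members, 81 had enough counts to be tested. The other 11 had at most 72 counts summed over 9 libraries, and the tested members had at least 94. Tissue-restricted versions of complex IV subunits made up most of the untested ones. Cox6a2 and Cox7a1, known from heart and skeletal muscle, had 0 to 7 and 0 to 4 counts per library, and Cox4i2, the version of subunit 4 known from lung and low oxygen, had 0 to 3. Cox6b2 and Cox8c, known from testis, had 1 to 11 and 0 to 1 counts, and Cox7b2 and Cox8b had none. The common versions Cox4i1, Cox6a1, Cox6b1, Cox7a2, Cox7b and Cox8a averaged 42.3 to 140.1 CPM with R848 alone. Ndufs5, an accessory subunit of complex I, also had no count in any library. Its transcript shares stretches of at least 100 bases at 95% identity or more with another gene, BC002163, which held 0 to 3 counts per library, and reads that map to several places are not counted. The part of such reads in the count of 0 was not tested, and the count is not read here as absence of expression.

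Most members differed little between R848 and IFN-α, and those that passed the test were lower with R848. In the edgeR quasi-likelihood test with Benjamini-Hochberg adjustment over all genes, 7 of 81 members were lower with R848 and 0 were higher, against 37.4% of all tested genes called in either direction, 19% lower and 18.4% higher. At an unadjusted p under 0.05, 14 of 81 members were lower and 0 higher, beside 2430 lower and 2433 higher of 11002 genes. DESeq2 called 5 members lower and 0 higher, and its share of all genes is not given here. The median log2 fold change of members was -0.11, against 0.02 for all genes. The members lower with R848 than with IFN-α were subunits of complex I (Ndufs3 and Ndufa7), complex II (Sdha and Sdhb), complex III (Uqcrfs1) and complex V (Atp5c1 and Atp5f1), and none of the 12 tested complex IV members passed. None of these changes reached 2-fold. The microglial marker sum was also lower with R848 than with IFN-α, at 3503 ± 317.2 against 5212 ± 145.3 CPM. Of its 13 markers 10 had a log2 fold change below 0, and the markers ranged from -4.06 to 0.94. The part of this sum in these differences was not tested.

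Ndufs3 (chr2:90894634-90904827), a core subunit of complex I, stood at 34.6, 34.6 and 41.3 CPM after R848, 53.2, 51.5 and 53.2 CPM after IFN-α and 45.4, 43.4 and 44.4 CPM with both. All R848 libraries lay below all IFN-α libraries, with the combined group between them. The log2 fold change of R848 against IFN-α was -0.51 ± 0.13 (SE), or 0.70-fold, with an adjusted p of 0.00182 by edgeR. This call held under all 21 alternative settings. Core subunits that did not pass in this comparison included Ndufs1 (-0.32), Ndufs7 (-0.41), Ndufs8 (-0.10), Ndufv1 (-0.19) and Ndufv2 (-0.14). Ndufa7 (chr17:33824572-33838317), an accessory subunit, was at 43.8, 51.0 and 45.1 CPM with R848 and 69.8, 52.3 and 55.7 CPM with IFN-α. Its groups did not overlap, although its highest R848 and lowest IFN-α libraries were close together (log2 fold change -0.34 ± 0.13, adjusted p = 0.0423 by edgeR).

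Sdha (chr13:74322254-74350280) encodes the flavoprotein of complex II, which oxidises succinate. It was at 102.5, 100.1 and 104.6 CPM after R848, 136.5, 135.2 and 131.0 CPM after IFN-α and 105.2, 112.6 and 102.1 CPM with both. The IFN-α libraries formed a separate, higher set, and the other groups overlapped. R848 against IFN-α gave a log2 fold change of -0.39 ± 0.10 (adjusted p = 0.00142, edgeR), and the combined group against IFN-α gave -0.34 ± 0.10 (adjusted p = 0.00682, edgeR). Sdhb (chr4:140961203-140979193), the iron-sulfur subunit next to it in the electron path, was at 76.0, 75.3 and 74.9 CPM, 84.8, 93.7 and 94.3 CPM, and 75.8, 66.2 and 76.5 CPM in the same order of groups. Here too the IFN-α libraries were above the rest, and the log2 fold changes were -0.27 ± 0.11 (adjusted p = 0.0438, edgeR) and -0.31 ± 0.11 (adjusted p = 0.0233, edgeR). Both comparisons use the same IFN-α libraries, so they are not independent. The membrane anchors of the complex did not pass in either comparison, with -0.05 and 0.02 for Sdhc and -0.15 and -0.03 for Sdhd.

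Uqcrfs1 (chr13:30540308-30545362), the Rieske iron-sulfur protein of complex III, was at 55.0, 59.8 and 59.8 CPM after R848, 69.8, 82.2 and 75.02 CPM after IFN-α and 60.2, 67.1 and 82.9 CPM with both. R848 was below IFN-α in all libraries (log2 fold change -0.38 ± 0.12, adjusted p = 0.0158, edgeR). The combined libraries lay on both sides of the IFN-α range, at 60.2 and 67.1 CPM below it and 82.9 CPM above it. In the ATP synthase, Atp5c1 (chr2:10056016-10080510), the γ subunit that turns inside the catalytic head, was at 89.3, 119.0 and 101.1 CPM after R848, 119.1, 131.9 and 133.6 CPM after IFN-α and 97.0, 104.9 and 97.1 CPM with both. The highest R848 library lay just below the lowest IFN-α library, and the combined libraries were all below IFN-α. The log2 fold changes against IFN-α were -0.32 ± 0.11 for R848 (adjusted p = 0.0189, edgeR) and -0.37 ± 0.11 for both agents (adjusted p = 0.00831, edgeR). Atp5f1 (chr3:105942698-105960099), subunit b of the stalk, was at 133.4, 191.8 and 171.6 CPM after R848, 201.6, 202.2 and 211.8 CPM after IFN-α and 198.5, 191.3 and 197.7 CPM with both (R848 against IFN-α -0.31 ± 0.10, adjusted p = 0.0190, edgeR). Its lowest value came from the first R848 library. Ndufs3, Atp5c1 and Atp5f1 each share near-identical stretches with 1 or 2 pseudogene-like transcripts, so their counts are uncertain where reads could map to both.

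Several of these calls rest on single libraries. By edgeR, the adjusted p of Atp5c1 for R848 against IFN-α was 0.0696 and 0.0785 without IFN-α replicates 2 and 3 and 0.0539 without R848 replicate 3, and that of Atp5f1 was 0.0691 without IFN-α replicate 3 and 0.0672 without R848 replicate 1. Ndufa7 had 0.281 and 0.0507 without IFN-α replicates 1 and 3, 0.0557 and 0.102 without R848 replicates 1 and 3 and 0.0537 without combined replicate 2. Uqcrfs1 had 0.0937 without IFN-α replicate 2. Sdhb lost its call without any 1 of 7 libraries, all but IFN-α replicate 1 and R848 replicate 1, with adjusted p from 0.0507 to 0.141. With DESeq2 the adjusted p of Ndufa7 was 0.0991 and that of Sdhb 0.102, without the low-count filter they were 0.0503 and 0.0828, with upper-quartile factors 0.0817 and 0.1004, and with library totals in place of TMM factors Ndufs3 alone still passed.

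**Figure D2:**
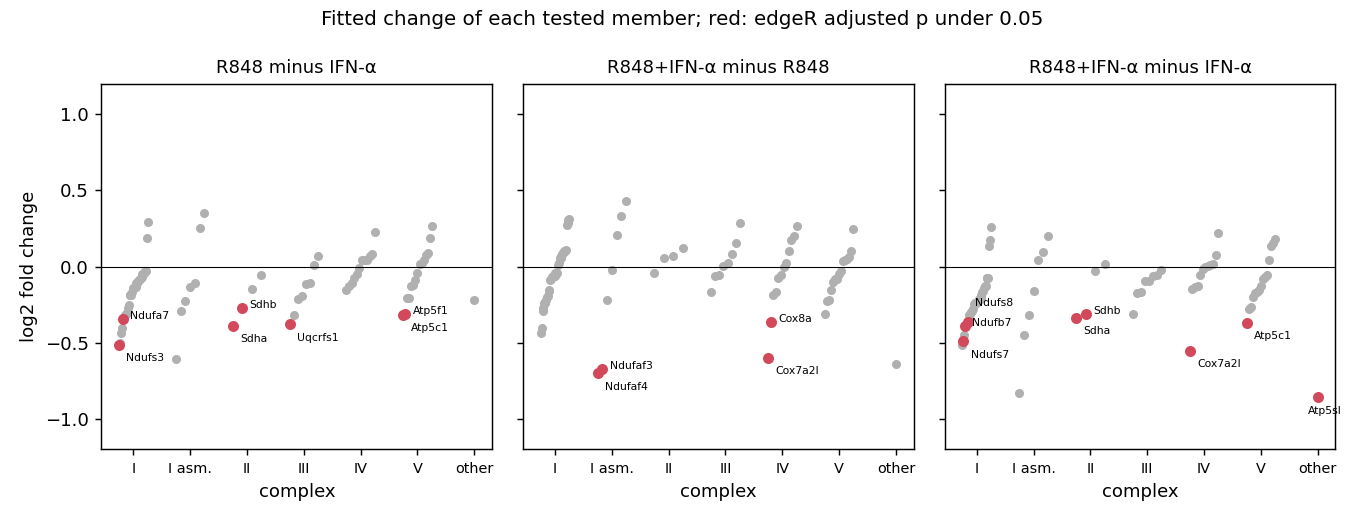
Fitted log2 fold change of each of the 81 tested members in each comparison, by complex (asm., assembly factors; other, Atp5sl). Red points passed the edgeR test at an adjusted p under 0.05 and are named; all 19 red points lie below 0, and most grey points lie within 0.5 of it.

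When IFN-α was added to R848, 4 of 81 members fell and 0 rose (edgeR, adjusted over all genes), against 35.9% of all genes called, 16.7% lower and 19.2% higher. At an unadjusted p under 0.05, 7 of 81 members were lower and 4 higher, beside 2381 lower and 2467 higher of 11002 genes. DESeq2 called 3 members lower and 0 higher, and its share of all genes is not given here. The median log2 fold change of members was -0.04, close to the -0.03 of all genes. The members that fell were the complex I assembly factors Ndufaf3 and Ndufaf4 and, in complex IV, Cox7a2l and Cox8a. No subunit of complexes I, II, III or V passed. The astrocyte marker sum was higher in the combined group than with R848, at 2788 ± 558.8 against 1587 ± 129.2 CPM. So was the microglial sum, at 3975 ± 228.2 against 3503 ± 317.2 CPM, although 5 of 13 microglial markers had a log2 fold change below 0. The part of these sums in the differences was not tested.

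Cox7a2l (chr17:83501918-83517330) encodes a relative of a complex IV subunit that is known to join complexes III and IV into supercomplexes. It was at 51.0, 69.0 and 61.3 CPM after R848, 55.5, 57.0 and 62.7 CPM after IFN-α and 45.7, 35.2 and 38.4 CPM with both. All combined libraries were below all others, while the single-agent groups overlapped. The log2 fold change was -0.60 ± 0.14 against R848 (0.66-fold, adjusted p = 0.000800, edgeR) and -0.56 ± 0.14 against IFN-α (0.68-fold, adjusted p = 0.00222, edgeR), and both calls held under all 21 alternatives. Cox7a2l was the only member below both single agents, where the larger of its p-values gave an adjusted p of 0.00674 by edgeR, against 10.1% of all genes beyond both agents and 2.82% below both. That combined call was lost without combined replicates 2 or 3 (adjusted p = 0.0527 and 0.0547, edgeR). Its paralogue Cox7a2, the common subunit, stood at 63.4, 62.0 and 65.4 CPM after R848, 54.7, 68.8 and 73.1 CPM after IFN-α and 73.6, 75.2 and 80.1 CPM with both, with log2 fold changes of 0.27 (adjusted p = 0.0747) and 0.22 (adjusted p = 0.162, edgeR) that did not pass. Cox7a2l shares a near-identical stretch with the transcript of Gm6969, so its counts are uncertain to that extent.

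Cox8a (chr19:7215153-7217616), a small membrane subunit of complex IV, was at 165.6, 135.7 and 119.1 CPM after R848, 113.3, 112.5 and 132.9 CPM after IFN-α and 112.3, 112.2 and 103.5 CPM with both. The first R848 library held the highest value, and the combined group lay below all R848 libraries (log2 fold change -0.36 ± 0.11, adjusted p = 0.0110, edgeR). Without that library the difference was -0.22 and the adjusted p 0.0741, and without combined replicate 3 it was 0.0748. Ndufaf4 (chr4:24898083-24905001) and Ndufaf3 (chr9:108565537-108567434) act together in building the arm of complex I that carries coenzyme Q. Ndufaf4 was at 14.4, 19.8 and 23.9 CPM after R848, 12.7, 18.0 and 17.7 CPM after IFN-α and 10.4, 13.3 and 12.01 CPM with both. Ndufaf3 was at 12.1, 11.97 and 10.9 CPM, 8.87, 9.37 and 9.18 CPM, and 8.18, 6.88 and 7.01 CPM in the same order. In both genes every combined library was below every R848 library, with log2 fold changes of -0.70 ± 0.21 (adjusted p = 0.00935, edgeR) and -0.67 ± 0.23 (adjusted p = 0.0220, edgeR). The call of Ndufaf4 was lost without R848 replicate 3 (adjusted p = 0.0856), and that of Ndufaf3 without R848 replicates 1 or 2 (0.0516 and 0.0578), without combined replicates 2 or 3 (0.0562 and 0.0927) and with DESeq2 (0.127).

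When R848 was added to IFN-α, 8 of 81 members fell and 0 rose (edgeR, adjusted over all genes), against 33.2% of all genes called, 14.7% lower and 18.5% higher. At an unadjusted p under 0.05, 15 of 81 members were lower and 1 higher, beside 2109 lower and 2473 higher of 11002 genes. DESeq2 called 3 members lower and 0 higher, and its share of all genes is not given here. The median log2 fold change of members was -0.16, against -0.01 for all genes. Besides Atp5c1, Sdha, Sdhb and Cox7a2l, described above, the members that fell were the complex I subunits Ndufs7, Ndufs8 and Ndufb7 and the gene Atp5sl. The microglial marker sum was lower in the combined group, at 3975 ± 228.2 against 5212 ± 145.3 CPM, and 10 of 13 markers had a log2 fold change below 0. The astrocyte sum was higher, at 2788 ± 558.8 against 1287 ± 157.7 CPM, although 4 of 10 markers were below 0. The part of these sums in the differences was not tested.

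Ndufs7 (chr10:80249121-80256794) and Ndufs8 (chr19:3908863-3912774) are core subunits that carry the last iron-sulfur clusters before coenzyme Q. Ndufs7 was at 24.2, 20.2 and 18.9 CPM after R848, 27.4, 31.0 and 25.6 CPM after IFN-α and 20.8, 22.4 and 17.6 CPM with both. Its IFN-α libraries were the highest 3 of 9. The combined group differed from IFN-α by -0.49 ± 0.17 (adjusted p = 0.0252, edgeR), and R848 by -0.41 ± 0.17, which missed the threshold (adjusted p = 0.0558, edgeR). Ndufs8 was at 41.8, 45.0 and 38.6 CPM, 49.0, 45.8 and 39.6 CPM, and 33.8, 31.4 and 37.4 CPM in the same order, with the combined libraries below all others and a log2 fold change of -0.37 ± 0.14 against IFN-α (adjusted p = 0.0430, edgeR). Against R848 it was -0.27 (adjusted p = 0.129, edgeR). Ndufb7 (chr8:83566671-83571626), an accessory subunit, was at 36.6, 34.6 and 39.2 CPM, 41.6, 36.0 and 46.2 CPM, and 27.9, 30.5 and 35.2 CPM, and differed by -0.39 ± 0.15 between combined and IFN-α (adjusted p = 0.0403, edgeR).

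Atp5sl (chr7:25619414-25625551) carries an ATP synthase name but its product, also called Dmac2, is known as an assembly factor for the membrane arm of complex I. It was at 8.07, 10.1 and 7.08 CPM after R848, 8.87, 6.49 and 13.6 CPM after IFN-α and 5.58, 6.88 and 4.40 CPM with both. The combined and IFN-α groups overlapped, and the log2 fold change of -0.86 ± 0.30 (adjusted p = 0.0281, edgeR) fell to -0.50 (adjusted p = 0.306) without IFN-α replicate 3. It was also lost without combined replicates 1 and 3 (0.0575 and 0.181) and with DESeq2 (0.120). Among the other calls of this comparison, Atp5c1, Sdha and Cox7a2l held under all 21 alternatives. Sdhb was lost without IFN-α replicates 2 or 3 (0.0817 and 0.0909) and combined replicate 2 (0.119), Ndufs7 without IFN-α replicates 1 or 2 (0.0502 and 0.120) and combined replicate 3 (0.172), Ndufs8 without IFN-α replicates 1 or 2 (0.170 and 0.113) and combined replicates 1 or 2 (0.102 and 0.144), and Ndufb7 without IFN-α replicates 1 or 3 (0.0874 and 0.209) and combined replicates 1 or 2 (0.154 and 0.103). Without R848 replicate 1, which enters this comparison only through the shared spread, 12 members were lower and 1 higher. The share of all genes called in that fit is not given here. With DESeq2, Sdhb had an adjusted p of 0.0659, Ndufs7 0.106, Ndufs8 0.122 and Ndufb7 0.120. Without the low-count filter, Ndufs8 (0.0696) and Ndufb7 (0.0601) did not pass, nor did Ndufs8 with unstranded counts (0.0549).

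**Figure D3:**
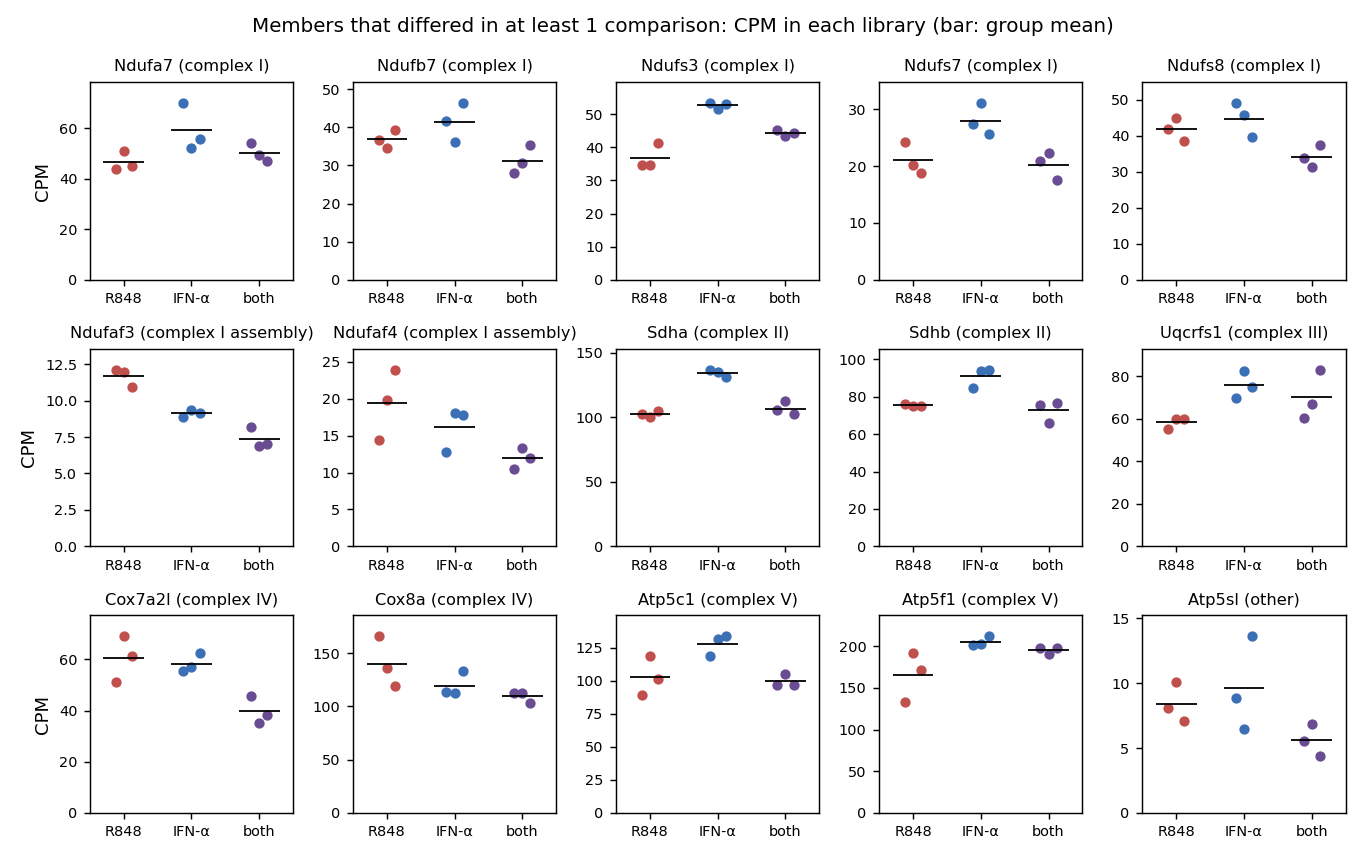
CPM (TMM-scaled) in each library of the 15 members that passed in at least 1 pairwise comparison, each with an axis from 0; points are libraries and bars group means. IFN-α is highest in Sdha, Sdhb, Ndufs3 and Atp5c1, and the combined group is lowest in Cox7a2l, Ndufaf3, Ndufaf4 and Ndufs8.

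In the test of any difference among the 3 groups, 12 of 81 members passed (edgeR, adjusted over all genes), against 50.3% of all genes. Ndufa7, Ndufb7 and Ndufs8 passed in a pairwise comparison but not in that joint test. The 95% confidence intervals of all tested members, called ones included, show how closely their changes were bounded. The whole interval lay within 1.5-fold in either direction for 57 of 81 members between R848 and IFN-α, 62 between combined and R848 and 56 between combined and IFN-α. For all tested genes that share was 27.8%, 29.5% and 30.5%, against 70.4%, 76.5% and 69.1% of members. The members were also more abundant than the typical gene, with a median of 45.3 against 20.99 CPM, and the part of abundance in this was not tested. The interval lay within 2-fold for 78, 77 and 78 members. The fitted log2 fold changes of all tested members ran from -0.60 to 0.35, from -0.70 to 0.43 and from -0.86 to 0.26 in the 3 comparisons.

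By complex, the medians relative to all genes were lowest in complex II for R848 against IFN-α (-0.23), followed by complex III (-0.18), complex I (-0.16), its assembly factors (-0.16), complex V (-0.07) and complex IV (-0.01). For the combined group against IFN-α the order was complex I (-0.23), complex II (-0.16), assembly factors (-0.15), complex V (-0.12), complex III (-0.09) and complex IV (-0.00). Complex IV thus lay at the median of all genes in both. For combined against R848 all complexes lay between -0.02 and 0.09 of that median. The first 2 of these comparisons share the IFN-α libraries, and no difference between complexes was tested.

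**Figure D4:**
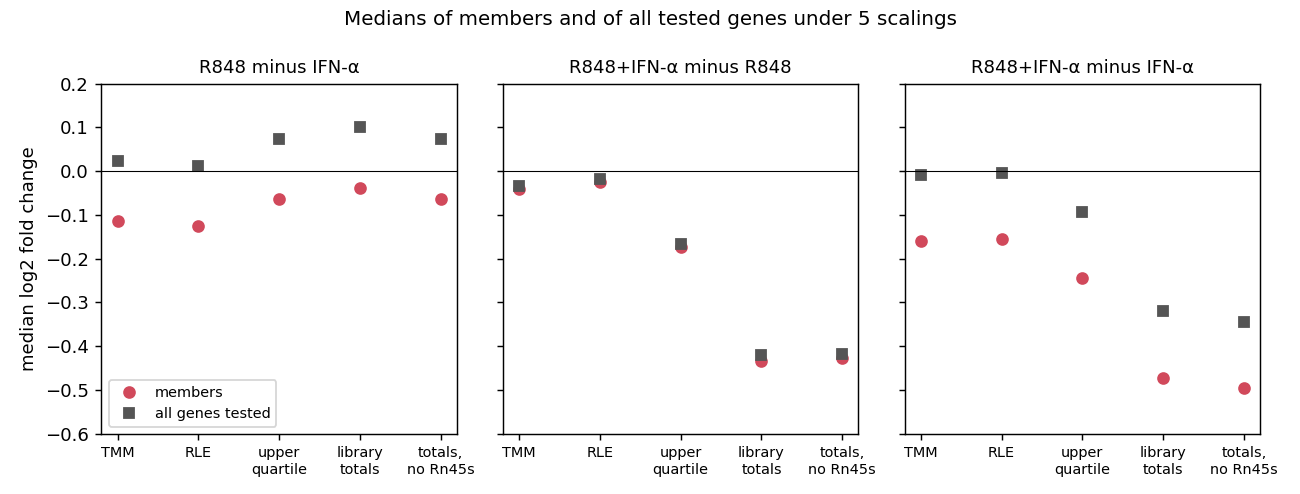
Median log2 fold change of members (circles) and of all tested genes (squares) in the 3 comparisons under 5 ways of scaling the libraries. The 2 medians move together: for combined against R848 they lie on each other under each scaling, from near 0 with TMM to about -0.43 with library totals, and in the comparisons with IFN-α the members lie below all genes by between 0.136 and 0.154.

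The genes Atp5g1, Atp5g2 and Atp5g3, encode the same mature c subunit, which forms the rotor ring of the ATP synthase, and differ in the import signal that is cut off. Atp5g3 held the largest share of their summed level per kb, at 52.4 ± 2.43% with R848, 48.8 ± 3.68% with IFN-α and 52.9 ± 1.32% with both. Atp5g2 held 27.6 ± 2.88%, 33.8 ± 1.71% and 29.6 ± 2.15%, and Atp5g1 20.0 ± 1.09%, 17.4 ± 2.22% and 17.5 ± 0.852%. The share of Atp5g2 was higher in every IFN-α library than in any other library. That of Atp5g3 was lower in every IFN-α than in every combined library but overlapped with R848, and that of Atp5g1 overlapped between IFN-α and both other groups. Atp5g1 and Atp5g2 share near-identical stretches with other transcripts (Gm10039, and Gm10175 and Gm10231), whereas Atp5g3 has no such copy, so uncounted multi-mapping reads could lower the shares of Atp5g1 and Atp5g2. The shares were not tested, and none of the 3 genes passed in any comparison.

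A far larger change was measured in a gene outside the naming rule. AA467197 (chr2:122636986-122641191, also called Nmes1) encodes a small protein related to Ndufa4, a subunit of complex IV, and is known to take the place of Ndufa4 in activated macrophages. It had 8, 6 and 13 counts in the R848 libraries, 19, 20 and 26 with IFN-α and at least 217 in each library with both, or 2.30, 1.89 and 3.83 CPM, 7.32, 7.21 and 8.23 CPM, and 110.8, 93.3 and 100.9 CPM. The groups were separate throughout, R848 lowest and combined highest. The combined group was 37.3-fold above R848 (log2 fold change 5.22 ± 0.20, adjusted p = 9.61e-20, edgeR) and 13.3-fold above IFN-α (3.73 ± 0.17, adjusted p = 2.09e-17, edgeR), and R848 was below IFN-α by -1.49 ± 0.30 (adjusted p = 0.000154, edgeR). All 3 calls held under all 21 alternatives. Ndufa4 itself stood at 61.4, 70.5 and 76.9 CPM, 63.2, 65.2 and 70.3 CPM, and 69.5, 58.9 and 70.9 CPM, with overlapping groups and log2 fold changes of 0.07, -0.06 and 0.01 that did not pass. The 95% interval of combined against IFN-α for Ndufa4 ran from -0.23 to 0.26. As a share of the summed level of both genes per kb, AA467197 made up 2.99 ± 0.880% with R848, 8.51 ± 0.239% with IFN-α and 55.4 ± 1.57% with both. Ndufa4l2, another relative known from low oxygen, had 0 to 2 counts per library.

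**Figure D5:**
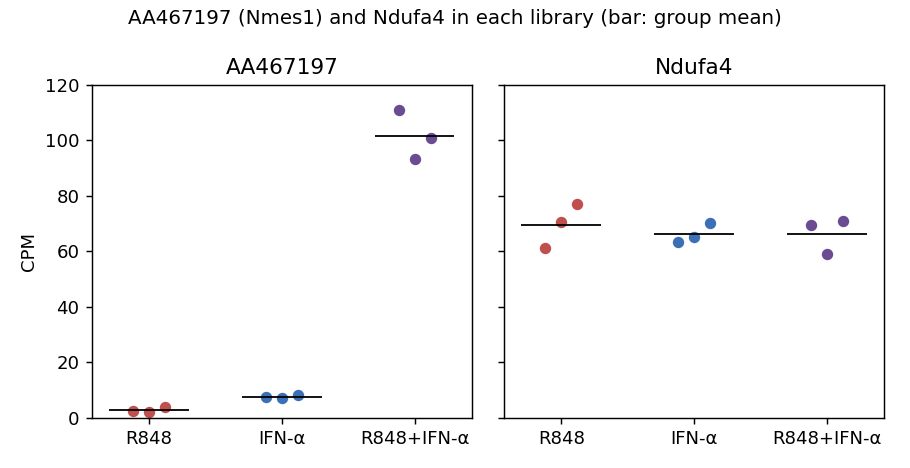
CPM of AA467197 and Ndufa4 in each library on 1 axis from 0; points are libraries and bars group means. AA467197 is under 10 CPM in the 6 single-agent libraries and between 93.3 and 110.8 CPM with both agents, while Ndufa4 lies between 58.9 and 76.9 CPM in all 9.

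Genes that work with the complexes were taken from lists, whose counts are to be read against the 37.4%, 35.9% and 33.2% of all genes called in the 3 comparisons. Cycs, cytochrome c, which carries electrons from complex III to IV, was at 65.4, 50.7 and 59.6 CPM after R848, 67.8, 77.5 and 65.5 CPM after IFN-α and 91.5, 97.6 and 89.7 CPM with both. All combined libraries were above the others (log2 fold change 0.66 ± 0.12 against R848, adjusted p = 3.07e-05, and 0.40 ± 0.12 against IFN-α, adjusted p = 0.00755, edgeR). With library totals in place of TMM factors these were 0.27 and 0.09 and neither passed (adjusted p = 0.0966 and 0.641, edgeR), and without IFN-α replicate 3 the latter had an adjusted p of 0.0523. Of 21 tested assembly factors of complex IV, 1 was higher after R848 than after IFN-α and 5 were lower, 4 were higher and 7 lower with both than with R848, and 3 were higher and 2 lower with both than with IFN-α, against 18.4% of all genes higher and 19% lower, 19.2% and 16.7%, and 18.5% and 14.7% in that order. Sco1, a copper chaperone for complex IV, was at 7.78, 11.97 and 15.03 CPM after R848, 37.8, 37.1 and 33.9 CPM after IFN-α and 49.4, 44.7 and 44.0 CPM with both. Its R848 level was far below the rest (log2 fold change -1.64 ± 0.18 against IFN-α, adjusted p = 9.95e-09, edgeR). Cox18, needed to insert a core subunit of complex IV, had the same order at 4.06 ± 0.973, 11 ± 0.342 and 17.3 ± 3.44 CPM. Cox15, which makes the haem of complex IV, was at 12.1 ± 0.955, 28.65 ± 1.202 and 26.5 ± 6.71 CPM. Sco2, the paralogue of Sco1, went the other way, at 4.35 ± 1.47, 2.32 ± 0.523 and 1.30 ± 0.803 CPM, and fell by 1.63 on the log2 scale from R848 to combined (adjusted p = 0.00694, edgeR), a call lost without R848 replicate 1 (0.0568).

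Of 8 tested assembly factors of complexes II and III, Ttc19 was higher and Uqcc3 lower with R848 than with IFN-α, Sdhaf1 and Bcs1l were lower with both than with R848, and Bcs1l and Uqcc3 lower with both than with IFN-α. The call of Ttc19 was lost with unstranded counts (log2 fold change 0.65 against 1.02, adjusted p = 0.0647, edgeR). Neither Bcs1l nor Uqcc3 passed in DESeq2 (adjusted p from 0.0609 to 0.151), and their calls were also lost without single libraries, Bcs1l against R848 without R848 replicates 1 or 3 (0.0955 and 0.0810) or combined replicates 1 or 3 (0.114 and 0.135) and against IFN-α without combined replicate 3 (0.0554). For Uqcc3, this was so for R848 against IFN-α without IFN-α replicates 1 or 2 (0.164 and 0.138) or any 1 R848 library (0.0656, 0.0510 and 0.0683), and for the combined group against IFN-α without IFN-α replicates 1 or 2 (0.163 and 0.139) or combined replicates 1 or 2 (0.166 and 0.0651). Sdhaf1, which helps to put iron-sulfur clusters into Sdhb, was at 7.69 ± 1.84, 4.98 ± 0.836 and 2.58 ± 0.842 CPM in the order R848, IFN-α and both. Of 12 tested genes of coenzyme Q synthesis, 0 were higher and 2 lower with R848 than with IFN-α in edgeR (1 higher and 2 lower at an unadjusted p under 0.05), 4 were higher and 2 lower with both than with R848, and 3 were higher and 3 lower with both than with IFN-α, beside 37.4%, 35.9% and 33.2% of all genes called. At that unadjusted p, 2433 of 11002 genes were higher and 2430 lower with R848 than with IFN-α. Coq2, which attaches the side chain of coenzyme Q, was at 9.22, 10.4 and 12.1 CPM after R848, 41.3, 33.9 and 36.7 CPM after IFN-α and 15.2, 19.3 and 14.0 CPM with both. Its IFN-α libraries were far above the others (R848 against IFN-α -1.81 ± 0.18, adjusted p = 9.99e-10, edgeR). Foxred1, an assembly factor of complex I, was likewise highest with IFN-α, at 24.9 ± 5.34 CPM against 11.5 ± 1.61 with R848 and 15.9 ± 3.89 with both.

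Among 10 tested nuclear regulators of respiratory genes, 4 were higher and 1 lower with R848 than with IFN-α, 1 higher and 2 lower with both than with R848, and 2 higher and 0 lower with both than with IFN-α, beside 37.4%, 35.9% and 33.2% of all genes called in either direction. Esrra, a nuclear receptor known to activate many of the subunit genes, was at 49.5, 37.8 and 41.3 CPM after R848, 22.7, 18.7 and 16.5 CPM after IFN-α and 32.7, 33.5 and 42.0 CPM with both. It was lowest in the IFN-α libraries (R848 against IFN-α 1.16 ± 0.17, adjusted p = 9.79e-07, edgeR). Nrf1, the factor after which the NRF1 motif is named, did not pass in any comparison, at 13.1 ± 1.29, 10.8 ± 1.55 and 11.4 ± 0.959 CPM. Yy1 was higher with R848 than with IFN-α (log2 fold change 0.52, adjusted p = 0.0196, edgeR). It was lower with both than with R848 (-0.45, adjusted p = 0.0389, edgeR), and neither call passed in DESeq2 (0.0938 and 0.155). Gabpb1 was higher with both than with R848 (0.56, adjusted p = 0.00262, edgeR), but did not pass with library totals (0.382). Of 75 tested mitochondrial ribosomal proteins, which build the machine that makes the mitochondrially encoded subunits, 7 were higher and 4 lower, 3 higher and 13 lower, and 1 higher and 6 lower in the 3 comparisons, smaller shares in each than those of all genes (37.4%, 35.9% and 33.2%). Mrpl12 was among the 13, at 38.8 ± 5.00 CPM with R848, 25.1 ± 3.43 with IFN-α and 20.4 ± 0.623 with both. Among 12 tested genes of mitochondrial DNA transcription and replication, 1 was higher and 1 lower, 1 higher and 2 lower, and 1 higher and 0 lower, beside the same shares of all genes. Polrmt, the polymerase that transcribes mitochondrial DNA, stood at 13.5 ± 2.03, 8.97 ± 0.928 and 6.38 ± 1.35 CPM and fell by 1.06 on the log2 scale from R848 to combined (adjusted p = 0.000705, edgeR). Slirp went the other way there (0.84, adjusted p = 3.39e-05, edgeR). Tefm was higher with both than with IFN-α (0.79, adjusted p = 0.0180, edgeR), a call lost with DESeq2 (0.0875).

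Promoter sequence, which the naming rule did not use, was searched for 3 motifs. In the window from 250 bases before to 50 bases after the start of transcription (RefSeq, GRCm38.p6), 76 members had 82 promoters, and 32851 promoters of all genes were searched the same way, on both strands. The NRF1 motif, searched as GCGCA, any base and GCGC, was in 24.4% of member promoters and 4.60% of all. The core of ETS factors such as GABPA, CCGGAAG, was in 20.7% and 8.86%, and that of YY1, AAGATGG, in 15.9% and 6.34%. At least 1 of the 3 was in 53.7% against 17.9%, so no single motif is common to most members. These shares were not tested. Sequence is shown for stretches upstream of every annotated start of the gene and outside every annotated exon (GENCODE release 21). These exist for 61 members, and 11 of them hold a match. They are shown to set a promoter with an NRF1 or ETS match beside those of members that fell without one. Capitals mark the match.

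Ndufaf4, chr4:24897963-24898082, plus strand, NRF1 motif, a member that fell when IFN-α was added to R848: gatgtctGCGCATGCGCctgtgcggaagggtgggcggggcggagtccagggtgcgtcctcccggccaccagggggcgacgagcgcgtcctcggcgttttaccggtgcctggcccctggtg
Cox6a1, chr5:115348982-115349101, minus strand, NRF1 motif, a member that passed in no comparison: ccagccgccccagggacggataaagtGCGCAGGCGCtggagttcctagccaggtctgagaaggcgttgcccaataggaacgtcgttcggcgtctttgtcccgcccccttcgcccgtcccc
Uqcr11, chr10:80406831-80406950, minus strand, ETS motif, a member that passed in no comparison: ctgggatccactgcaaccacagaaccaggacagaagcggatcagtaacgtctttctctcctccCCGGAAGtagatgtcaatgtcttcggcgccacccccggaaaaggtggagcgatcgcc
Sdhb, chr4:140961083-140961202, plus strand, no match, lower in both groups with R848 than with IFN-α: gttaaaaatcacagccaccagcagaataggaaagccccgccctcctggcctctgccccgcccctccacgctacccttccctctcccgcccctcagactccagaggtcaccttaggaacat
Cox8a, chr19:7217617-7217736, minus strand, no match, a member that fell when IFN-α was added to R848: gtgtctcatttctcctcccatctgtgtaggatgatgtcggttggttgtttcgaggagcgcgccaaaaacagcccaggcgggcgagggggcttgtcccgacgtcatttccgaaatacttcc

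A match is a description of the letters and not of a bound factor, and a stretch without one says only that these letters are not in it.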

How the data were processed

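The naming rule uses symbols and no measured value, but this gene group and the related gene lists were picked for study with earlier results of these data known. Per the labels' protocols, ribosomal RNA was removed, directional libraries were made and 101-cycle paired reads were sequenced on an Illumina HiSeq. Per the submitters' processing notes, the tools named are STAR 2.5.1, Trimmomatic 0.33, DESeq2 and CASAVA 1.8.2, and the build is mm10. Which annotation was counted is not given in the sources. The authors deposited raw read counts per gene; reverse-strand counts were used, since forward counts were 1.09 to 1.50% of both strands. Rows naming no gene (unassigned reads, 39.3 to 44.4% of pairs in no feature, 19.8 to 26.3% unmapped) were left out of totals. Rn45s held 13.4 to 26.1% of gene counts.

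Genes passing filterByExpr (minimum count 10, total 15) were scaled by TMM and fitted by group over 9 libraries with the edgeR 4.0.16 quasi-likelihood test (R 4.3.3, limma 3.58.1), checked on simulated counts. Calls have a Benjamini-Hochberg adjusted p under 0.05 over 11002 genes. The common biological coefficient of variation (0.0955) is from this fit. All pairs of replicates differed beyond counting noise (chi-square per degree of freedom 1.92 to 6.27 without Rn45s), so no pair was merged as a repeat deposit of 1 library; whether libraries are separate cultures is not known from this. Log2 fold changes carry the SE and CPM the SD over 3 libraries. An SE is the absolute log2 fold change over the square root of F, so it is approximate. A gene was beyond both agents where the larger of its p-values, with the same sign, passed after adjustment. Positions and lengths are from GENCODE M21 (GRCm38), using the shortest best-supported principal transcript; near-identical means at least 95% over 100 bases in blastn. Alternatives were DESeq2 1.42.0, other scalings, filters and strand choice, a replicate block and leaving out each library. Named genes were, per comparison, up to 8 called members in each direction, core and isoform subunits fixed by name whatever they showed, up to 3 called genes per related list with the largest change, and members beyond both agents; Ndufs4, Ndufs5, Atp5b, Atp5e, Uqcrq, Cox7b2, Cox8b, Cox8c, Uqcr11 and Nrf1 were added for their level or sequence, after their values were seen.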

Additional observations from a re-analysis of the deposited data

How the results depend on the processing

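Of 19 calls of a member in a pairwise comparison, 5 were kept under all 21 alternative settings. Counts of members called moved most with scaling. With library totals in place of TMM factors, 1, 49 and 53 members passed for R848 against IFN-α, combined against R848 and combined against IFN-α, 59 among the 3 groups and 30 beyond both agents, and without factors or Rn45s (chosen after seeing the data) 3, 52, 66, 69 and 40. With upper-quartile factors, 17 and 18 passed in the comparisons with the combined group, 22 among the groups and 2 beyond both. DESeq2 called 3 for combined against IFN-α and 4 among the groups, and a minimum count of 50 gave 14 for R848 against IFN-α. The cause was not tested. Shares of all genes called are not given here for any alternative setting. The median of all tested genes moved with that of the members across the scalings, so these counts are not a result about the members alone. The members' summed level was 4800 CPM (R848) and 4326 CPM (combined) with upper-quartile factors, 5133, 5172 and 3876 CPM with library totals and 6249, 6418 and 4731 CPM without factors or Rn45s.

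Medians relative to all genes changed less. A minimum count of 50 gave complex I assembly factors 0.22, -0.69 and -0.47 in the 3 comparisons and complex II -0.19 against IFN-α, DESeq2 and no filter gave complex IV 0.0734 and 0.0660 against R848, and no filter gave complex II 0.0627 there. Leaving out each library in turn, the counts ran from 4 to 9, 2 to 5 and 5 to 13, from 7 to 14 among the groups and from 0 to 1 beyond both. Medians ran from -0.0316 to 0.0323 for all members (combined against R848). For R848 against IFN-α they ran from -0.41 to 0.14 for assembly factors, -0.29 to -0.10 for complex III, -0.0842 to 0.0628 for complex IV and -0.0945 to -0.000923 for complex V. They ran from 0.0593 to 0.103 for complex II (combined against R848) and -0.142 to -0.0531 for complex V (combined against IFN-α).

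With scaling, members that were not called in the comparison changed sign, and so did Vdac2 and Slc25a3, carrier genes outside the members that were called higher (Vdac2 0.32 against R848 and 0.32 against IFN-α, Slc25a3 0.30 against IFN-α). With library totals, combined against R848 was -0.35 for Ndufv1, -0.33 for Sdha, -0.32 for Sdhc and -0.0686 for Vdac2, and combined against IFN-α -0.0121 for Slc25a3. Without factors or Rn45s, combined against R848 was -0.35 for Atp5g2, -0.36 for Ndufv1, -0.33 for Sdha, -0.32 for Sdhc and -0.0670 for Vdac2, and combined against IFN-α -0.33 for Cox6a1, -0.32 for Cox7b, -0.32 for Ndufa4, -0.32 for Sdhc, -0.0344 for Slc25a3 and -0.0187 for Vdac2. Replicate numbers did not pair the libraries (correlations of same-numbered deviations from -0.101 to 0.0587), and with the replicate block 6, 4 and 8 members were called, 11 among the groups and 1 beyond both. Under the block the call of Sdhb for R848 against IFN-α (adjusted p = 0.0541, edgeR) and that of Ndufs8 for combined against IFN-α (0.0530) were lost. The 11 untested members had too few counts for a test, 3 of them none in any library, and the cause was not tested.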
